A study of Arabidopsis thaliana with 42 samples.

Results

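The β-glucosidase, β-galactosidase, β-xylosidase and endoglucanase genes of Arabidopsis thaliana were followed through their RNA levels in roots and shoots at 3 zinc supplies. A probe set was included when it was paired with 1 gene whose symbol begins BGLU, BGAL, BXL or GH9, with BGLU28 and BGLU42 left out. This gave 34 probe sets of the 22746 tested: 18 of the BGLU family, 15 of the GH9 family, 1 of the BGAL family (BGAL16) and none of the BXL family. A RefSeq gene table lists 79 symbols of these families (40 BGLU, 15 BGAL, 3 BXL and 21 GH9). The annotation used gave no gene name to 8730 of the tested probe sets, and these may hold more members. Below, a gene is called measured when a named probe set was paired with it alone. The β-galactosidases and β-xylosidases are almost or wholly without such a probe set here, and nothing below speaks for them as families.

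Glycoside hydrolases cut the bonds between sugars, or between a sugar and another molecule. The BGLU proteins belong to glycoside hydrolase family 1. In plants they release defence compounds, hormones, flavonols and lignin precursors from their stored glucosides, and many are held apart from their substrates until the cell is damaged or the product is needed. The GH9 proteins are endoglucanases that act on cellulose and related wall glucans: the GH9A class is anchored in membranes, the GH9B class is secreted, and the GH9C class carries a cellulose-binding module. BGAL proteins release galactose from wall polymers, and BXL proteins release xylose.

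The RNA came from 4-week-old hydroponic plants of the bzip19 bzip23 double mutant, a T-DNA insertion line in the Columbia (Col-0) ecotype, and from Col-0 wild type. bZIP19 and bZIP23 encode transcription factors of the zinc deficiency response. All plants had 2 µM ZnSO4 for 3 weeks, then 0.05 µM (low), 2 µM (normal) or 25 µM (excess) for 1 week. Both genotypes, both tissues and the 3 supplies made 12 groups, with 4 arrays per root group and 3 per shoot group (42 Affymetrix ATH1 arrays), and each sample pooled 6 plants from 2 containers. Nothing states that replicates were separate cultures, so p-values measure the spread between these samples only. In whole organs, fewer cells of a type and less RNA per cell cannot be told apart.

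Values are the authors' log2 values from robust multi-array averaging (RMA). A difference of 1 on this scale is a doubling, and the brightness of a probe set depends on its probes, so levels were compared between groups for 1 gene and not between genes. No detection calls were used. The transcript of bZIP19, disrupted in the mutant, averaged 4.46 to 4.92 in the 6 mutant groups, against 8.70 to 9.88 in the 6 wild type groups. The highest mutant mean, 4.92, is used here as the level of background: where the dimmer mean was at or under it, a fold is given as a lower bound, and where both means were, no fold is given. Adjusted p-values are from limma with the Benjamini-Hochberg method over 22746 probe sets, and a probe set was called when this was under 0.05. A stated error is the SD over the arrays of a group, or the SE of a fitted difference.

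Most arrays resembled the others of their group closely (mean correlation 0.988 to 0.997 in roots and 0.986 to 0.995 in shoots), and 2 stood apart at 0.980: replicate 2 of wild type roots at excess zinc and replicate 1 of wild type shoots at low zinc. Called results resting on either are given with and without it. The array names place low zinc roots on another date than normal and excess zinc roots, and excess zinc shoots on another date than low and normal zinc shoots. No date held both tissues. Hence date and group cannot be told apart for low against normal zinc in roots, for excess against normal zinc in shoots, and for roots against shoots, whereas every comparison of genotypes lies within a date. In roots the 4 photosynthetic tissue markers measured (RCA, LHCB4.1, PSAN and PSAE-1, of 23 listed) had a summed level of 8.36 to 10.07 on the log2 scale, against 15.5 to 15.69 in shoots, and the 3 root markers measured (PRX72, EXPA7 and EXPA18, of 20) stood at 10 to 10.98 in roots, against 6.99 to 7.36 in shoots. PRX72, with a wild type mean of 4.63 at normal zinc, was at background in shoots, and no photosynthetic marker was at background in roots.

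Across all 12 groups, 17 of the 34 glycoside hydrolase probe sets had means above background everywhere, 11 in some groups, and 6 (BGLU24, BGLU29, BGLU36, BGLU43, GH9B6 and GH9B11) in none. Over all tested probe sets 74.7% were above background everywhere, 11.3% in some groups and 13.9% in none. As brightness depends on the probes, these shares describe probe sets and rank no genes or families. Within a tissue, most of them differed little between the groups of genotype and zinc. The span between the highest and lowest of the 6 group means had a median of 0.275 in roots and 0.26 in shoots, where that of all tested probe sets was 0.238 and 0.292. The groups of each tissue lay on 2 array dates, so a span also holds any difference between dates. A span over 1 occurred for 2 of 34 in roots (5.88%) and 3 of 34 in shoots (8.82%), all of the BGLU family, where 3.36% and 3.34% of all probe sets had one. The 2 in roots were BGLU27 and BGLU32, whose span holds the response it was singled out for. Leaving BGLU32 aside, BGLU27 alone of the other 33 had such a root span. The 3 in shoots (BGLU31, BGLU44 and BGLU47) each ran between a low zinc and an excess zinc group, which lay on different array dates. The widest GH9 span was 0.63.

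**Figure D1:**
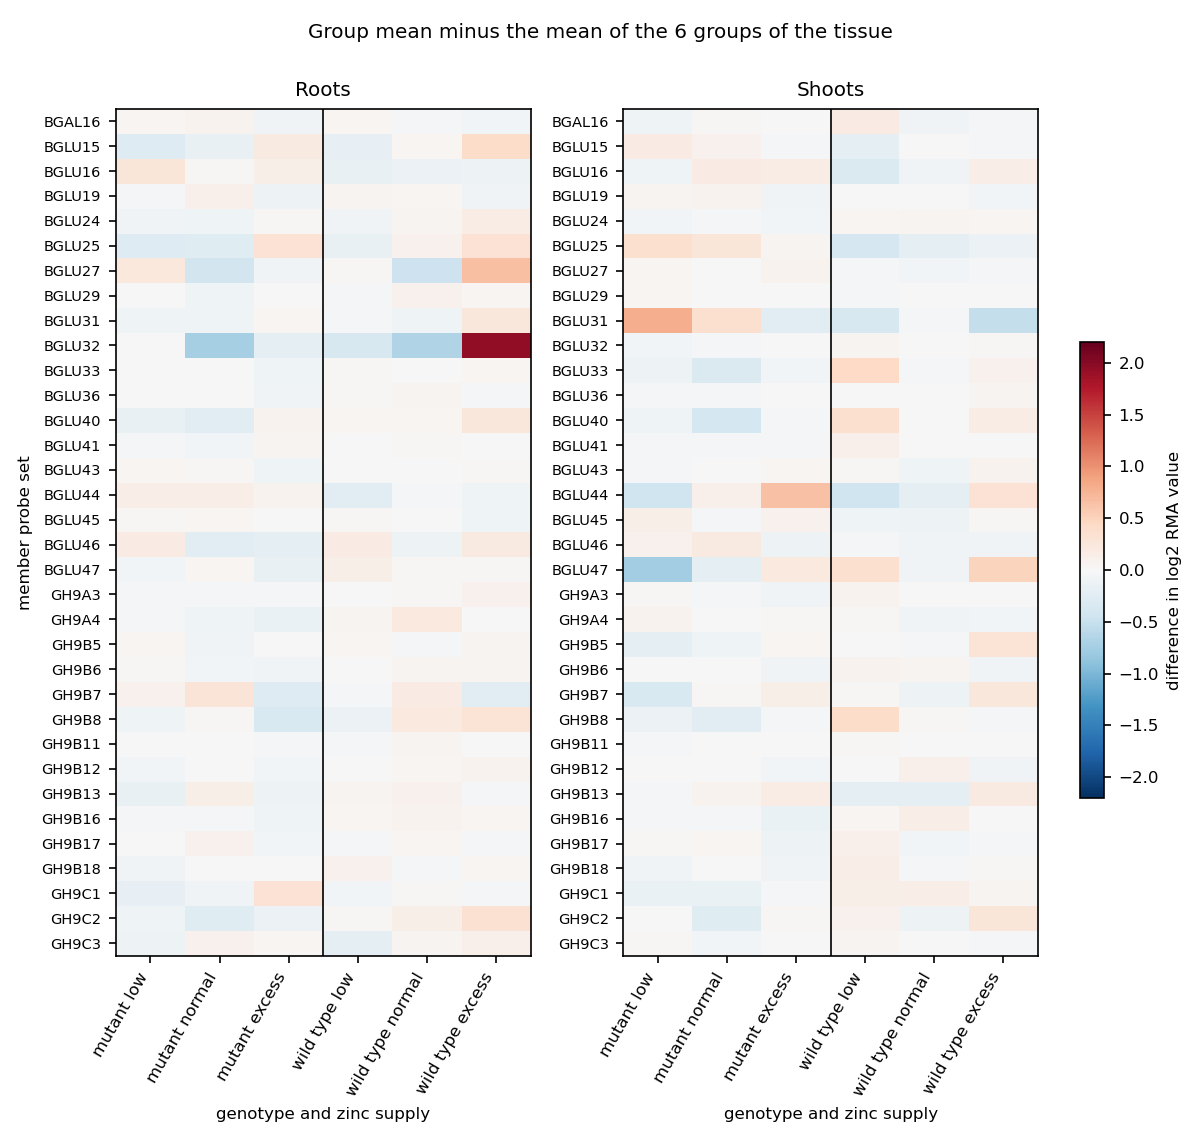
Each cell is the mean log2 value of a group minus the mean of the 6 groups of that tissue, for the 34 glycoside hydrolase probe sets (rows), in roots (left) and shoots (right), with mutant columns before wild type columns. Most cells are pale, and the darkest one is BGLU32 in wild type roots at excess zinc.

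Zinc excess in roots moved a few β-glucosidase genes. BGLU32 (AT5G24550) is described first because it was singled out for its response in wild type roots, so that response is given without a test. In mutant roots the 4 arrays read 4.33, 4.33, 4.20 and 5.00 at excess zinc, against 3.84, 3.99, 3.97 and 3.98 at normal zinc. In wild type roots they read 6.61, 7.37, 6.81 and 5.70 at excess zinc, against 3.92, 4.01, 4.06 and 4.07 at normal zinc. Every wild type array at excess zinc was above background, and of the other root arrays only 1, a mutant array at low zinc that read 5.83, reached the lowest of them. The wild type mean was 6.62 ± 0.69 at excess zinc and 4.01 ± 0.07 at normal zinc (SD, n = 4), a log2 difference of 2.61 (SE 0.31), or at least 3.26-fold, and 2.36 without replicate 2. In the mutant the difference was 0.52 (SE 0.31, 95% interval -0.12 to 1.16, adjusted p = 0.419), with both means at background.

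At excess zinc the mutant mean of BGLU32 was 4.47 ± 0.36, against 6.62 ± 0.69 in wild type (SD, n = 4), a log2 difference of -2.16 (SE 0.31), or at least 3.26-fold lower in mutant, and -1.91 without wild type replicate 2. No mutant array reached the lowest wild type array. Mutant minus wild type response to excess zinc was -2.09 (SE 0.43), and -1.84 without that replicate. Both comparisons hold the 4 wild type arrays for which BGLU32 was singled out, so they are descriptions without a test, and BGLU32 is left out of the counts of calls given below for them.

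At low zinc BGLU32 was uneven. Mutant roots read 4.56, 5.83, 4.19 and 4.06, against 4.41, 4.71, 4.07 and 4.09 in wild type roots. Only 1 of these 8 arrays, mutant replicate 2, was above background, and neither low against normal zinc (0.71 in mutant, adjusted p = 0.644, and 0.30 in wild type, adjusted p = 0.852) nor mutant against wild type was called. In shoots BGLU32 stayed at background in all 18 arrays, with group means of 3.91 to 4.03.

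**Figure D2:**
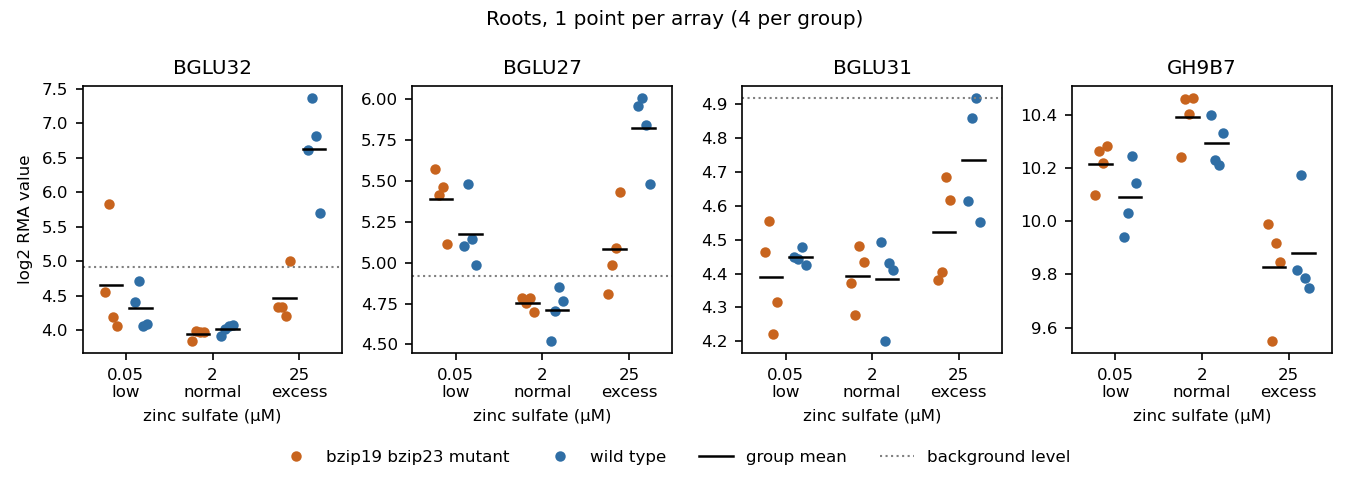
Log2 values of BGLU32, BGLU27, BGLU31 and GH9B7 in roots at 0.05, 2 and 25 µM zinc sulfate, 1 point per array, 4 per group, with a bar at each group mean and the background level of 4.92 dotted where it falls in range (axes differ between panels). BGLU32 at excess zinc reads 5.70 to 7.37 in wild type and 4.20 to 5.00 in mutant, and GH9B7 at excess zinc lies lower than at normal zinc in both genotypes.

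BGLU27 (AT3G60120), a β-glucosidase gene next to BGLU16, rose in wild type roots at excess zinc. Mutant roots read 4.81, 4.99, 5.09 and 5.44 at excess zinc, against 4.79, 4.75, 4.78 and 4.70 at normal zinc. Wild type roots read 5.96, 6.01, 5.84 and 5.48 at excess zinc, against 4.52, 4.70, 4.85 and 4.76 at normal zinc. The supplies did not overlap in either genotype, and the 4 wild type arrays at excess zinc all exceeded the 4 mutant arrays. The rise in wild type was 1.11 on the log2 scale (SE 0.13, adjusted p = 5.82e-06), at least 1.87-fold, and 1.05 without replicate 2. In mutant the difference of 0.33 (SE 0.13, adjusted p = 0.182) did not pass.

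The genotypes differed in BGLU27 at excess zinc, with mutant roots lower than wild type roots, at 5.08 ± 0.26 and 5.82 ± 0.24 (SD, n = 4), a 1.67-fold difference (log2 -0.74, SE 0.13, adjusted p = 0.0096), and -0.68 without wild type replicate 2 (adjusted p = 0.0351). With only these 2 groups in the fit its adjusted p was 0.263. The difference between the genotypes' responses was -0.79 (SE 0.19, adjusted p = 0.312), and -0.73 without that replicate. Low zinc gave a rise below the threshold, without the same order of genotypes. BGLU27 read 5.57, 5.41, 5.46 and 5.11 in mutant and 5.10, 5.48, 5.15 and 4.99 in wild type roots at low zinc. All were above the normal zinc arrays of the same genotype. The low zinc mean was 5.39 in mutant and 5.18 in wild type. The differences from normal zinc were 0.64 in mutant (SE 0.13, adjusted p = 0.0832) and 0.47 in wild type (SE 0.13, adjusted p = 0.194), in a comparison that cannot be told apart from the array date. With all 42 arrays in the fit the mutant difference passed (adjusted p = 0.00869).

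BGLU31 (AT5G24540), the neighbour of BGLU32 on chromosome 5, was dim in roots. It read 4.62, 4.86, 4.92 and 4.55 in wild type roots at excess zinc, against 4.49, 4.20, 4.43 and 4.41 at normal zinc, a rise of 0.35 on the log2 scale (SE 0.09, adjusted p = 0.0170) with both means at background. The call was lost without excess zinc replicate 2 (0.31, adjusted p = 0.0511), without excess zinc replicate 3 or normal zinc replicate 2, and with only these groups in the fit (adjusted p = 0.136). The mutant root arrays read 4.38 to 4.69 at excess zinc, against 4.28 to 4.48 at normal zinc, and overlapped.

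Leaving BGLU32 aside, 3 of the other 33 probe sets (9.09%) were called at excess against normal zinc in wild type roots, BGLU27 and BGLU31 higher and GH9B7 lower, a share close to the 9.7% of all tested probe sets called there (5.96% higher and 3.74% lower). The median difference of the 33 was 0.02, against -0.001 over all probe sets, and 17 of 33 lay above 0, against 11323 of 22746. In mutant roots 1 of 34 was called, GH9B7, where 5.07% of all probe sets were. Between genotypes at excess zinc 1 of 33 was lower in mutant (BGLU27) and none higher, where 1.48% of all probe sets were called (0.853% lower). The excess and genotype comparisons share the wild type arrays at excess zinc.

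**Figure D3:**
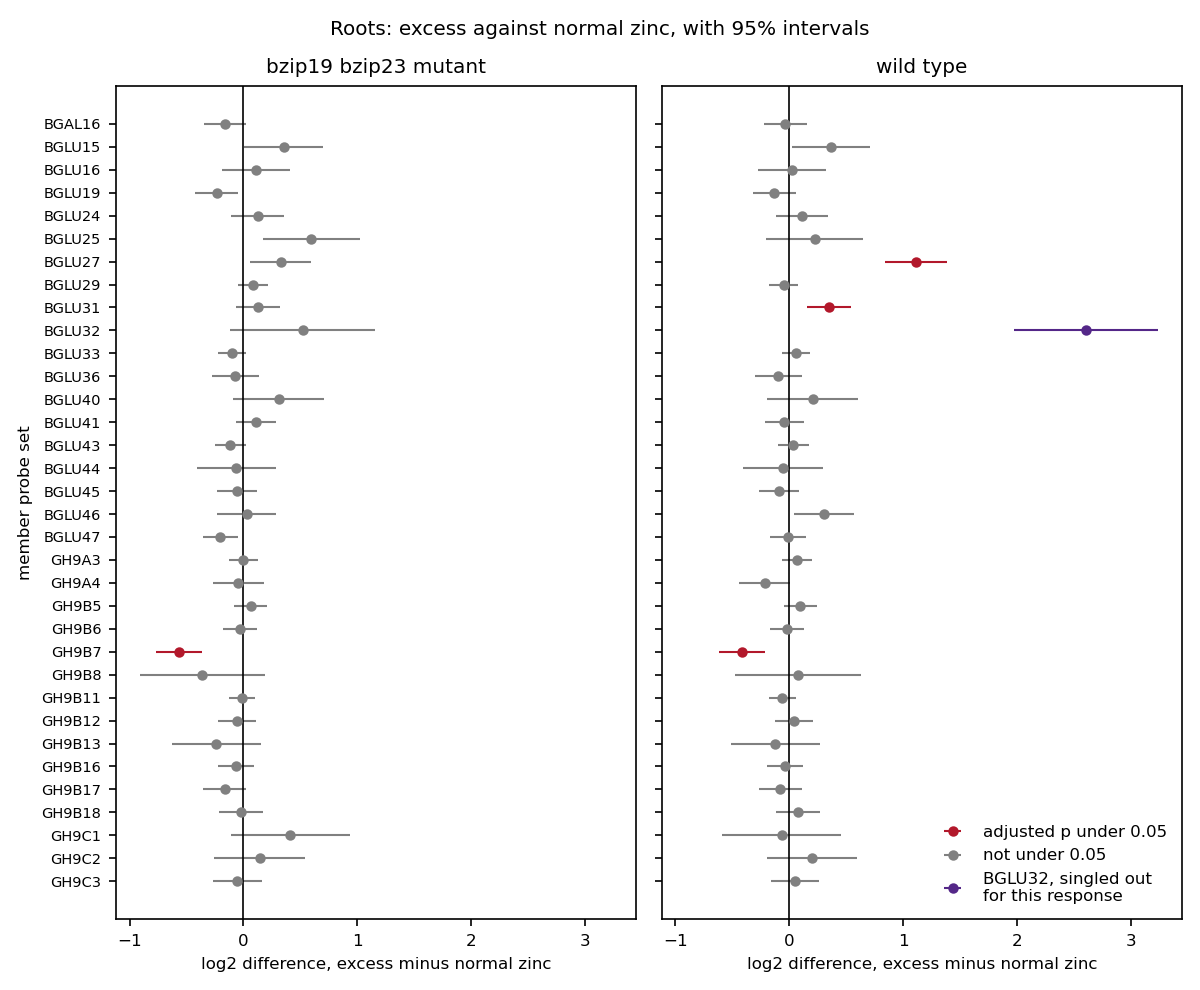
Fitted log2 difference between excess and normal zinc in roots, with its 95% interval from limma, for the 34 probe sets in mutant (left) and wild type (right). In wild type BGLU32 (2.61) and BGLU27 (0.84 to 1.39) lie above the others; BGLU32 has its own colour because it was singled out for this response, and its interval is no test.

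The other 15 β-glucosidase genes were not called for zinc or genotype in roots. BGLU15 (AT2G44450), which hydrolyses flavonol glycosides, read 9.34, 9.14, 9.28 and 9.62 in mutant roots at excess zinc, against 8.57, 9.34, 9.10 and 8.96 at normal zinc. In wild type roots it read 9.63, 10.02, 9.41 and 9.22 at excess zinc, against 9.14, 9.31, 8.92 and 9.43 at normal zinc. The groups overlapped in both genotypes, with differences of 0.36 in mutant (adjusted p = 0.272) and 0.37 in wild type (adjusted p = 0.194), and intervals of 0.01 to 0.70 and 0.02 to 0.71. BGLU25 (AT3G03640), a relative of the endoplasmic reticulum body β-glucosidase PYK10, differed by 0.60 in mutant roots (SE 0.20, adjusted p = 0.103) and by 0.22 in wild type roots (adjusted p = 0.614). BGLU46 (AT1G61820), which acts on monolignol glucosides, the stored form of lignin precursors, averaged 8.25 ± 0.25 in mutant and 8.66 ± 0.27 in wild type roots at excess zinc (SD, n = 4), a difference of -0.41 that did not pass (adjusted p = 0.0959). It was -0.285 without wild type replicate 2 (adjusted p = 0.289) and was called without wild type replicate 4 (-0.49, adjusted p = 0.032).

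Low zinc called no glycoside hydrolase in roots by limma, in either genotype (0 of 34 each). At an unadjusted p under 0.05 there were 4 of 34 (11.8%) in mutant and 4 of 34 (11.8%) in wild type, against 6.95% and 9.14% of all probe sets, and the calls over all probe sets were 0.0484% in mutant and 0.132% in wild type. None of the 34 was called between mutant and wild type roots at low or normal zinc, where 0.0835% and 0.0572% of all probe sets were called.

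In shoots BGLU31 and BGLU44 were called. BGLU31, dim in roots, was higher in mutant than in wild type shoots at low zinc. Mutant shoots read 5.65, 5.82 and 5.69, against 4.73, 4.54 and 4.45 in wild type shoots, without overlap. The difference was 1.15 on the log2 scale (SE 0.13, adjusted p = 4.51e-04), at least 1.74-fold, and 1.23 without wild type replicate 1. The values at normal zinc were 5.52, 4.89 and 5.43 in mutant and 4.92, 4.96 and 4.75 in wild type, where the difference of 0.40 did not pass (adjusted p = 0.538). At excess zinc they were 4.73, 4.60 and 4.71 in mutant and 4.38, 4.27 and 4.55 in wild type, with both means at background. The mutant means thus ran 5.72, 5.28 and 4.68 at low, normal and excess zinc, and the wild type means 4.57, 4.88 and 4.40. Mutant minus wild type response to low zinc was 0.75 and did not pass (interaction test, SE 0.19, adjusted p = 0.94).

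BGLU31 was the only 1 of the 34 called between genotypes in shoots at low zinc, where 5.88% of all probe sets were called. BGLU47 (AT4G21760) came close. It read 6.82, 6.67 and 5.95 in mutant shoots at low zinc, against 7.04, 7.86 and 7.88 in wild type shoots, a difference of -1.11 (SE 0.32, adjusted p = 0.0536). The groups did not overlap, and the difference was -1.39 without wild type replicate 1 (adjusted p = 0.0318). Leaving out that array, or mutant replicate 1, brought the calls to 3, with BGLU40 and BGLU47 lower in mutant. BGLU25 averaged 10.10 ± 0.40 in mutant and 9.38 ± 0.22 in wild type shoots at low zinc (SD, n = 3), a difference of 0.72 that did not pass (SE 0.24, adjusted p = 0.0862), and 0.73 without wild type replicate 1.

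BGLU44 (AT3G18080), a β-glucosidase of the class that releases mannose from small mannan fragments, read higher in shoots at each higher zinc supply, though most steps did not pass. Mutant shoots read 9.97, 9.98 and 10.04 at low, 10.47, 10.67 and 10.49 at normal and 11.22, 11.16 and 10.86 at excess zinc. Wild type shoots read 10.10, 9.88 and 10.02 at low, 10.14, 10.15 and 10.44 at normal and 10.50, 10.85 and 10.93 at excess zinc. In both genotypes the 3 supplies did not overlap. The rise at excess over normal zinc was 0.53 in mutant (SE 0.12, adjusted p = 0.0285), and in wild type the difference of 0.51 was of similar size but did not pass (SE 0.12, adjusted p = 0.0750). Excess against normal zinc in shoots cannot be told apart from the array date. The low against normal zinc difference, which lies within an array date, passed in neither genotype. It was -0.55 in mutant (adjusted p = 0.0969) and -0.24 in wild type (adjusted p = 0.492). In roots BGLU44 showed no such order, with group means of 6.11 to 6.49.

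At excess zinc in mutant shoots the calls were BGLU44, higher, and BGLU31, lower (-0.60, SE 0.13, adjusted p = 0.0255), 2 of 34 where 3.2% of all probe sets were called. Of those, 516 were higher and 213 lower, but 325 and 289 once each array was centred on its median. Neither member call held in every fit: no member was called from these 2 groups alone, BGLU31 lost its call in 5 and BGLU44 in 4 of the 6 fits that left out 1 array (adjusted p up to 0.102 and 0.117). Wild type shoots at excess zinc gave no call among the 34 by limma, where 0.62% of all probe sets were called. At an unadjusted p under 0.05 there were 4 (11.8%), against 9.92% of all probe sets. Low zinc gave none in mutant shoots (0.0659% of all probe sets called) or wild type shoots (0.703%), and at an unadjusted p under 0.05 there were 3 (8.82%) and 1 (2.94%), against 7.46% and 11% of all probe sets. None of the 34 was called between mutant and wild type shoots at normal or excess zinc, where 0.022% and 0.0308% of all probe sets were called.

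**Figure D4:**
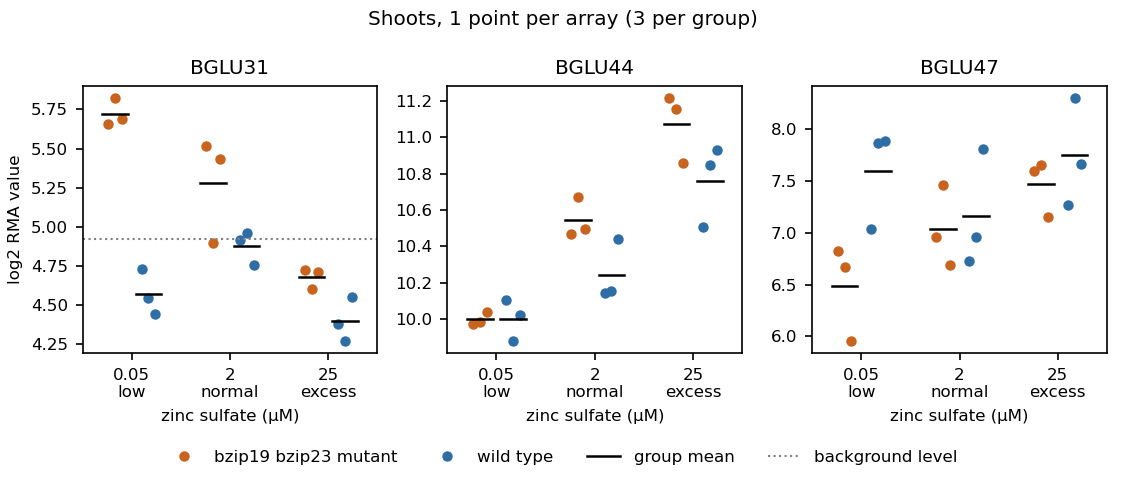
Log2 values of BGLU31, BGLU44 and BGLU47 in shoots at 0.05, 2 and 25 µM zinc sulfate, 1 point per array, 3 per group, with a bar at each group mean and the background level of 4.92 dotted where it falls in range (axes differ between panels). BGLU31 at low zinc reads 5.65 to 5.82 in mutant and 4.45 to 4.73 in wild type, and BGLU44 lies higher at each higher supply in both genotypes.

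Among the endoglucanases, GH9B7 (AT1G75680), of the secreted class, was the 1 called for zinc. It fell in roots of both genotypes at excess zinc. Mutant roots read 9.99, 9.55, 9.92 and 9.85 at excess zinc, against 10.24, 10.46, 10.40 and 10.46 at normal zinc. Wild type roots read 9.82, 10.17, 9.79 and 9.75 at excess zinc, against 10.40, 10.23, 10.21 and 10.33 at normal zinc. Neither genotype had overlapping supplies. The difference was -0.57 in mutant (SE 0.10, adjusted p = 9.67e-04) and -0.41 in wild type (SE 0.10, adjusted p = 0.00911), and -0.51 in wild type without replicate 2. With only the groups compared in the fit the wild type call was lost (adjusted p = 0.0798) and the mutant call was not (adjusted p = 0.0103). In shoots GH9B7 ran from 9.92 to 10.81 over the 18 arrays and was called in no comparison of zinc or genotype.

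The other 14 GH9 genes were called in none of the zinc or genotype comparisons. In wild type roots at excess zinc 7 of the 15 lay above 0 and 8 below, from -0.41 (GH9B7) to 0.20, and in mutant roots 4 lay above 0 and 11 below, from -0.57 (GH9B7) to 0.41 (GH9C1, adjusted p = 0.443). Between mutant and wild type roots at excess zinc 14 of the 15 GH9 differences lay below 0, with a median of -0.095, and none passed. This count and the next ones include wild type replicate 2, the array that stood apart. It was the highest of the wild type arrays for GH9B7 (10.17), GH9B17 (5.86) and GH9B18 (6.54), and without it these differences lay above 0. Of the 33 probe sets other than BGLU32, 27 lay below 0 (median -0.095), and over all probe sets 13240 of 22746 did (median -0.026). GH9B8 (AT2G32990) had the widest of the GH9 differences, -0.63 (SE 0.27, adjusted p = 0.229), passed without wild type replicate 4 (-0.94) and was -0.47 without replicate 2. GH9A3 (AT4G24260), also called KOR3, a relative of the cellulose synthesis endoglucanase KORRIGAN, kept group means of 6.65 to 6.80 in roots and 6.70 to 6.87 in shoots.

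BGAL16 (AT1G77410), the 1 β-galactosidase gene measured, also varied little, though more than GH9A3 in shoots (span of group means 0.29, against 0.165). Its arrays ran from 5.66 to 6.66 with a median of 5.90, and the highest was replicate 1 of wild type shoots at low zinc, the array that stood apart. Mutant roots read 5.96, 5.76, 5.84 and 5.77 at excess zinc, against 6.19, 5.83, 6.09 and 5.88 at normal zinc, and wild type roots 5.76, 5.96, 5.87 and 5.82, against 5.93, 5.98, 5.90 and 5.74. The supplies overlapped in both genotypes. Its root means were 5.83 to 5.99 and its shoot means 5.84 to 6.13. No comparison called it. For excess against normal zinc the 95% interval was -0.35 to 0.02 in mutant roots and -0.22 to 0.15 in wild type roots.

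Many of these genes differed in level between roots and shoots, as most probe sets on the array did. In wild type at normal zinc 18 of the 34 (52.9%) differed between roots and shoots, 9 higher and 9 lower in roots, where 60.8% of all probe sets did (35.6% higher and 25.2% lower). The genes named here beyond BGLU15, BGLU31 and BGLU44 were chosen after their values were seen. BGLU46 read 8.52, 8.37, 8.18 and 8.36 in roots, against 4.17, 3.84 and 4.28 in shoots, at least 10.9-fold higher in roots (log2 difference 4.26, SE 0.14, adjusted p = 7.86e-25). BGLU15 averaged 9.20 ± 0.22 in roots (n = 4) and 5.79 ± 0.07 in shoots (n = 3), a 10.6-fold difference. BGLU45, the immediate neighbour of BGLU46 and likewise active on monolignol glucosides, was at background in both tissues, at 4.76 and 4.74.

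BGLU44, BGLU33, BGLU40 and BGLU47 ran the other way. BGLU44 read 6.44, 6.48, 6.04 and 6.22 in roots, against 10.14, 10.15 and 10.44 in shoots, 15.4-fold lower in roots (log2 difference -3.95, SE 0.16, adjusted p = 4.66e-22). BGLU33 (AT2G32860) was at background in all root arrays and read 7.05, 7.37 and 8.07 in shoots, at least 5.97-fold lower in roots. BGLU40 was 8.93-fold and BGLU47 at least 4.75-fold lower in roots. Of these 6 genes none had overlapping tissues.

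Of the 15 GH9 genes, 4 were higher and 3 lower in roots. GH9C1 (AT1G48930), known from root hairs and the endosperm, averaged 8.34 ± 0.19 in roots (n = 4) and 5.58 ± 0.25 in shoots (n = 3), a 6.74-fold difference (log2 2.75, SE 0.25, adjusted p = 3.16e-12). GH9B13 was 3.43-fold higher, and GH9A4 and GH9C3, at background in shoots, were at least 1.23-fold and 1.39-fold higher. Lower in roots were GH9B8 (1.74-fold), GH9B18 (1.30-fold) and GH9B5, at background in roots (at least 1.25-fold). GH9B7 had nearly equal means, 10.29 in roots and 10.28 in shoots (95% interval of the difference -0.22 to 0.25).

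**Figure D5:**
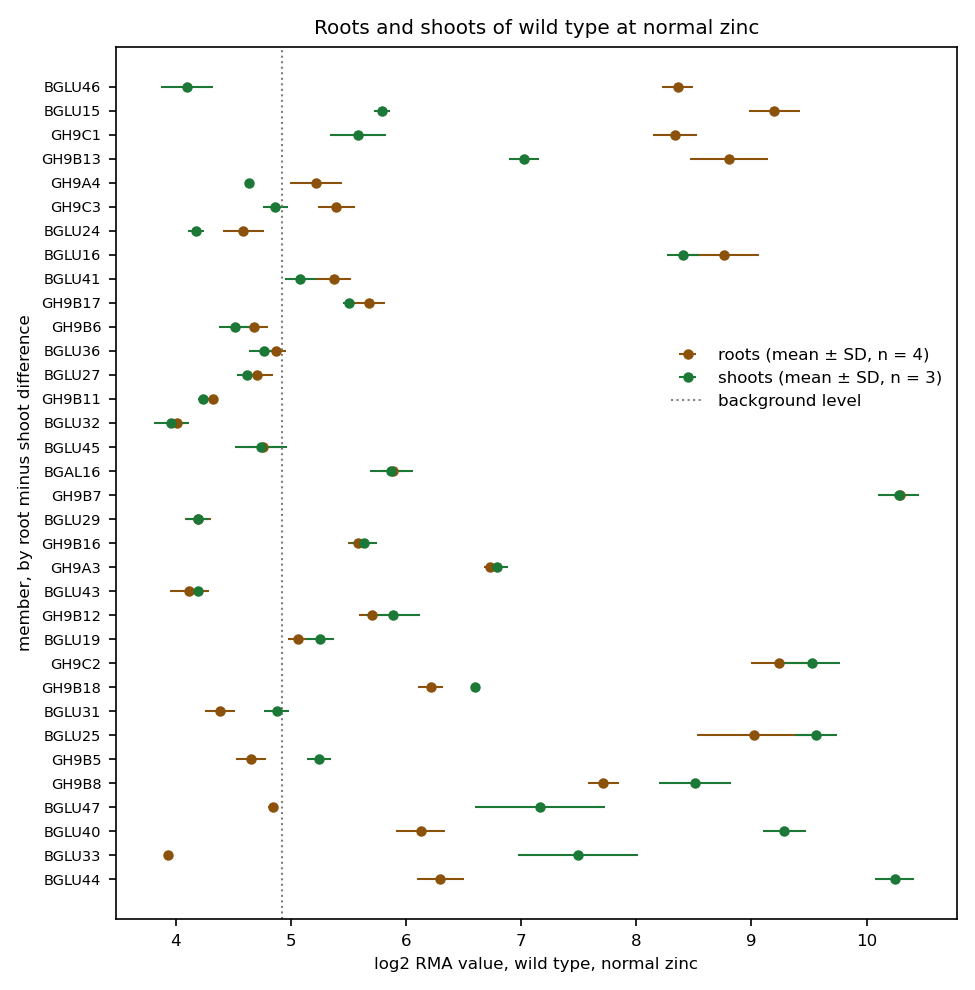
Mean log2 value and SD in wild type at normal zinc, roots (brown, n = 4) and shoots (green, n = 3), for the 34 probe sets ordered by the root minus shoot difference, with the background level dotted. BGLU46 and BGLU15 head the order and BGLU44 ends it, while the means of GH9B7, GH9A3 and BGAL16 nearly coincide.

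The response to excess zinc in wild type differed between roots and shoots for 3 of the 33 probe sets other than BGLU32 (9.09%), where 4.61% of all probe sets did. The root minus shoot difference of responses was 1.08 for BGLU27 (SE 0.17, adjusted p = 9.72e-05), 0.83 for BGLU31 (SE 0.16, adjusted p = 9.93e-04) and -0.77 for GH9B7 (SE 0.17, adjusted p = 0.00336). Without replicate 2 of wild type roots at excess zinc it was 1.02, 0.79 and -0.87, and each remained called. For BGLU32 it was 2.58 (SE 0.38), and 2.33 without that array, a description without a test. All 4 means of BGLU31 in these groups, and both shoot means of BGLU27, were at background, so these differences rest on dim values. GH9B7 differed by -0.41 in roots and by 0.36 in shoots, where it did not pass (adjusted p = 0.338). The shoot responses here cannot be told apart from the array date. No member was called for the low zinc response between tissues (0.404% of all probe sets). None was called for any difference of zinc responses between mutant and wild type, with BGLU32 left out at excess zinc in roots. Over all probe sets 0.0132% were called for that difference at excess zinc and 0.0176% at low zinc in roots, and 0% and 0.0132% in shoots.

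Correlations between genes that lie side by side varied widely. Over the 12 group means, which are dominated by tissue, Pearson's r was 0.87 for BGLU43 with BGLU44 and 0.54 for BGLU27 with BGLU16, but -0.57 for BGLU45 with BGLU46, -0.11 for BGLU31 with BGLU32, and between -0.31 and 0.22 for the 3 adjacent GH9 pairs. BGLU43 and GH9B11 were at background throughout. BGLU32 was above background in 1 group, and BGLU31 and BGLU45 in 2 each. BGLU27 and BGLU46 were at background in all shoot groups. Hence r rests wholly or partly on dim values for every pair except GH9B16 with GH9B17 and GH9B17 with GH9B18.

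Partner genes of these enzymes were read from lists. In the list of coumarin and monolignol glucoside genes 6 of 11 were measured. At excess zinc in mutant roots UGT72E1, a glucosyltransferase gene, rose by 2.49 on the log2 scale and F6'H1, of coumarin synthesis, by 1.06, while UGT71C1 fell by 0.72. In wild type roots UGT72E1 rose by 2.52, F6'H1 by 1.22 and UGT72E2, a monolignol glucosyltransferase, by 0.77. Without replicate 2 these were 2.40, 1.28 and 0.585, all still called, and UGT71C1 was called as well (-0.625, adjusted p = 0.015). UGT72E2 was lower in mutant roots at excess zinc, at 9.91, against 10.67 in wild type roots (log2 difference -0.76, adjusted p = 0.0231), but this call was lost without wild type replicate 2 (-0.576, adjusted p = 0.0597).

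The list of PYK10 partners and endoplasmic reticulum body genes had 6 of 17 measured. The lectin gene JAL22 rose by 0.52 in wild type roots at excess zinc (adjusted p = 0.0473), but not without replicate 2 (0.33, adjusted p = 0.187), and none passed in mutant roots. JAL23 was higher by 1.04 in mutant shoots at excess than at normal zinc (adjusted p = 0.0131), which cannot be told apart from the array date. NAI2, needed to form these bodies, read 11.37 in roots and 5.67 in shoots of wild type at normal zinc. JAL23 ran the other way, at 4.09 in roots and 9.02 in shoots. NAI1, JAL22, JAL33 and JAL34 had higher means in roots. COB and IRX10, the 2 of 20 cellulose and secondary wall genes measured, were not called at excess zinc in roots. No gene of the lists of myrosinases, of xylan and xyloglucan side chains, or of sugar starvation was paired by name with a probe set of its own. The probe sets without a gene name may hold some of them.

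PSAN, a photosystem I gene among the photosynthetic markers, fell in roots at excess zinc, by 1.16 in mutant (adjusted p = 0.0344) and 1.30 in wild type (adjusted p = 0.0112; -1.22 and 0.0304 without replicate 2), and the other 3 markers did not pass. The summed level of the 4 markers was 8.55 to 9.64 in mutant roots at excess zinc, against 9.12 to 10.07 at normal zinc, and 8.36 to 8.83 in wild type roots at excess zinc, against 8.63 to 9.57 at normal zinc. Of the 3 root markers PRX72 rose in mutant roots (0.54, adjusted p = 0.0260) and none passed in wild type roots. The actin 3′ minus 5′ signal, a gauge of RNA integrity, was 2.57 to 2.87 in mutant roots at excess zinc, against 2.86 to 3.18 at normal zinc, and 2.57 to 3.17 in wild type roots at excess zinc, against 2.72 to 3.04 at normal zinc. The part of these in the root results was not tested.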

How the data were processed

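Roots and shoots were profiled on 42 arrays. The authors deposited 1 log2 value per probe set and array, made with RMA, which corrects background and normalises between arrays; RMA and limma are named in the submitters' processing notes, with versions not given in the sources used here. Of 22810 probe sets, 64 controls were left out. Names came from the platform's annotation, updated through RefSeq (TAIR10.1) for 13436 of the 13513 probe sets with 1 gene. Depth does not apply: the number of arrays limits the precision.

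Comparisons used limma (3.58.1, under R 4.3.3; a linear model per probe set with eBayes moderation), with 24 root arrays, 18 shoot arrays or, between tissues, all 42 in the fit, in 21 two-sided comparisons, with no filter on low values. The method was tested on simulated data. Values per array are given for BGLU32, for members called in a zinc or genotype comparison, and, to choose which to show and not as a result, for the member with the highest mean of each family in each tissue (for BGAL16 in roots at excess and normal zinc only). BGLU33, BGLU46, BGLU47 and other genes given by means were added after their values were seen. BGLU32 was not tested where its wild type root response enters. The members, lists and tests were chosen with earlier results of these data known. Replicate numbers did not pair samples as a rule: of 60 same-number root pairs 16, and of 45 shoot pairs 9, had deviations correlated over 0.1. Mutant and wild type roots at normal zinc were an exception, with same-number correlations of 0.198 or more. The main fits did not use replicate numbers. Alternatives were other sets of arrays in the fit, a filter on dim probe sets, other spread models, median centring, a replicate block, a fold threshold and each array left out. Tables and plots used Python 3.11.15, pandas 2.3.3, numpy 2.4.6 and matplotlib 3.10.9.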

Additional observations from a re-analysis of the deposited data

Results flagged for a closer look

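In 3 of the 42 root groups examined (7 genes in 6 groups of 4 arrays) 1 array lay far from the other 3 for its gene, where chance gives about 1 in 20. For BGLU32 these were the lowest mutant array at normal zinc, 3.84 with the nearest at 3.97, and the highest mutant array at excess zinc, 5.00 with the nearest at 4.33. For GH9B7 it was the highest wild type array at excess zinc, 10.17 with the nearest at 9.82, which is replicate 2, the array that stood apart from its group.

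The response of wild type to excess zinc differed between roots and shoots by the interaction test for 3 genes, with root minus shoot differences of 1.08 for BGLU27, 0.83 for BGLU31 and -0.77 for GH9B7.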

How the results depend on the processing

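Of 436 values recomputed for 33 results on single genes, 403 kept their direction and side of the threshold, 33 fell below it and none reversed. All but the BGLU32 response in mutant roots were included because they had been called, and 18 were differences between roots and shoots. The 403 therefore does not speak for the zinc and genotype calls alone. For excess against normal zinc 2 members instead of 4 were called in wild type roots with at least 1.5-fold, with only the groups compared or without dim probe sets (mean under 5, which removes BGLU31 and BGLU32), and 3 to 4 with an array left out. In mutant roots it was 0 with at least 1.5-fold instead of 1, and 1 with any array left out. In mutant shoots it was 1 with at least 1.5-fold, all 42 arrays or no dim probe sets, 0 with only the groups compared and 0 to 2 with an array left out, instead of 2. In wild type shoots it was 1 with all 42 arrays (BGLU31) and 0 to 1 with an array left out (BGLU44 without excess zinc replicate 1), instead of 0. For low against normal zinc in mutant roots it was 1 with all 42 arrays and 0 to 1 with an array left out (BGLU27 without mutant low zinc replicate 4), instead of 0. Between genotypes in roots at excess zinc it was 0 with only the groups compared, 1 without dim probe sets and 2 to 4 with an array left out (BGLU46 and GH9B8 added without wild type replicate 4), instead of 2, and for the difference of responses 1 with all 42 arrays and 0 to 2 with an array left out, instead of 0. Between genotypes in shoots at low zinc it was 3 with all 42 arrays, 2 with the arrays of 1 date and 1 to 3 with an array left out, instead of 1. Roots against shoots gave 10 with at least 1.5-fold and 16 to 19 with an array left out, instead of 18, and BGLU16, BGLU25 and GH9B8 lost their calls in some of these fits. The tissue difference in the excess response gave 1 without dim probe sets, instead of 4. Over all probe sets, the calls at excess zinc in wild type roots were 2206, but 674 with only the groups compared and 1418 with 1 date, those between genotypes in roots at excess zinc 336, but 5, 46 and, with all 42 arrays, 510, and those between genotypes in shoots at low zinc 1337, but 44 with only the groups compared and 2352 with all 42 arrays. The calls at excess zinc in mutant shoots were 729, but 425 and 1412. Replicate number as a block (replicate block) kept all 21 member counts within 1.5 times, with 4 members at excess zinc in wild type roots, and of the single results lost only BGLU16 between tissues (0.346, adjusted p = 0.0564). The causes were not tested. Counts here include BGLU32, whose wild type root response to excess zinc was no test. Dim signal limits BGLU31, BGLU32 and the zinc response of BGLU27, whose folds are lower bounds or not given.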

Other observations

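Of the RefSeq symbols of these families, 6 shared a probe set with 1 other gene of the same family, on 3 probe sets that were left out of the 34. The probe set of BGLU22 and BGLU21, β-glucosidases of the PYK10 group, averaged 12.35 ± 0.14 in roots (n = 4) and 4.51 ± 0.22 in shoots (n = 3) of wild type at normal zinc, at least 172.6-fold higher in roots, as the shoot mean was at background (adjusted p = 1.19e-25 by limma). Its root means stayed between 12.30 and 12.41 over genotypes and supplies, and it was called in no other comparison. The probe sets of GH9B15 and GH9B14 and of GH9B10 and GH9B9 were at background in all 12 groups, with highest means of 4.34 and 4.16.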
